A study of Caenorhabditis elegans with 4 samples.

Results

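LSY-2 binding on chromosome III of the nematode Caenorhabditis elegans was described from 3 lists of ChIP-seq peaks. In ChIP-seq, DNA crosslinked to a chosen protein is recovered with an antibody and sequenced, and stretches with more reads than a control are called as peaks. Every row of chromosome III was taken: 181 of the 884 rows of replicate 1, 204 of the 1033 rows of replicate 2 and 342 of the 1910 rows of the combined list, which belongs to the series as a whole. Rows that shared at least 1 bp were merged, and the 727 rows gave 346 regions, of 1926 regions formed in the same way on all 6 chromosomes. The choice used position only. All positions are on chromosome III in build WS180 unless another chromosome is named.

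The samples were 2 LSY-2 ChIP libraries and 2 input libraries, all from L4 stage hermaphrodites of strain OP240 grown at 20 degrees. The strain carries unc119(ed3) and the bombarded transgene wgIs240, in which lsy-2 is fused to TY1, EGFP and FLAG, and the antibody was a goat antibody to GFP. All samples thus share the mutation and the transgene, and the inputs are not analysed here. If libraries 1 and 2 came from cultures grown apart, the labels do not say it. Whole larvae were used, so weak binding in many cells and strong binding in few cannot be told apart. The lists give an interval and a q value per peak and no read counts, and the depth of the libraries is unknown.

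LSY-2 is a C2H2 zinc finger transcription factor, known for making the left and right ASE taste neurons differ, a step in which the microRNA lsy-6 depends on it. Worm autosomes have a gene-dense central part with little recombination between a pair of arms that are richer in repeats. Genes beside the regions and the DNA sequence of the regions were not analysed here.

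Of the 346 regions, 150 (43.4%, 95% Clopper-Pearson interval 38.1 to 48.8) held a peak of both replicates, where the share over all chromosomes was 38.1%. The share was lowest on chromosome I (31.6%) and otherwise between 36.9% on X and 39.3% on II. Regions of the combined list alone count among all regions here. With the replicate lists only, the share was 67.0% on III, and on the others from 65.1% on V to 68.5% on I. With rows of q below 1e-10 only, it was 43.3% on III, and on the others from 35.5% on V to 50.5% on II. All 3 lists supported 148 of the chromosome III regions (42.8%, against 37.7% over all chromosomes), and the combined list alone supported 125 (36.1%, interval 31.1 to 41.4, against 43.0%). Between these lay 46 regions of replicate 2 and the combined list and 22 regions of replicate 1 and the combined list. The remaining 5 regions were absent from the combined list: 2 were in both replicates, 2 in replicate 2 alone and 1 in replicate 1 alone. Intervals treat regions as independent and cover counting error only, and no difference between chromosomes was tested here.

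Strength followed support. The score is given as −log10 q, so a q of 1e-10 reads as 10 and a larger value is a stronger call. The median −log10 q of regions in all 3 lists was 8.84 by replicate 1, 10.0 by replicate 2 and 17.9 by the combined list, and their median width was 914.5 bp. For regions of the combined list alone the median score was 4.93, with quartiles of 4.32 and 5.83, and the highest reached 9.48. Their width was 474 bp at the median. Regions of 1 replicate and the combined list stood near this lower level, at medians of 6.80 in the combined list with replicate 1 and 6.03 with replicate 2. A region in more lists is wider in part because merging joins its rows. Low scores of regions missing from a list are likewise set in part by how support is defined. The 2 regions of both replicates without the combined list included the strongest of the chromosome, at 221 in replicate 1 and 274 in replicate 2.

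The density of peaks on chromosome III was 13.2 per Mb in replicate 1, 14.8 in replicate 2 and 24.8 in the combined list, over a span of 13.8 Mb up to the last listed base. The next densest chromosome in replicate 1 was X with 9.41 peaks per Mb, and it was X with 11.1 in replicate 2 and I with 20.6 in the combined list. Chromosome III thus came first in each list, and its ratio to the next densest chromosome was smallest in the combined list. Peaks covered 0.976% of chromosome III in replicate 1, 1.17% in replicate 2 and 2.07% in the combined list. On the other chromosomes the covered share was at most 0.745% in replicate 1, 0.882% in replicate 2 and 1.70% in the combined list.

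**Figure D1:**
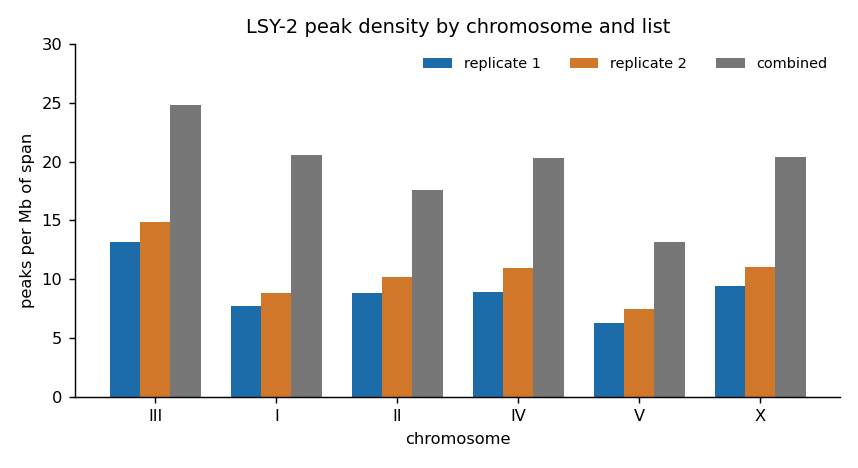
Peaks per Mb of each chromosome's span (bars) in replicate 1, replicate 2 and the combined list, with chromosome III at the left. Chromosome III has the tallest bar of each list, at 13.2, 14.8 and 24.8 peaks per Mb.

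Chromosome III had the most peaks in each replicate, and in the combined list its 342 were fewer than the 360 of X and the 355 of IV. Peak for peak, strength and width were of ordinary size. Their median −log10 q was 7.46 in replicate 1, where the other chromosomes had medians from 6.30 to 8.23, and 7.78 in replicate 2, where the others had 6.55 to 8.35. Their median width was 629 bp in replicate 1, 645.5 bp in replicate 2 and 649 bp in the combined list, which also lay within the ranges of the other chromosomes. At the upper end, chromosome III held 4 of the 10 best rows of replicate 1, 4 of replicate 2 and 3 of the combined list. The counts of the other chromosomes among these few rows were not taken. The best row of each list lay elsewhere, on IV in replicate 1 (264.6) and replicate 2 (288.8) and on V in the combined list (274.1). Among the 100 best rows of each list chromosome III held 20, close to its share of all rows (20.5% in replicate 1, 19.7% in replicate 2 and 17.9% in the combined list).

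Regions were unevenly spread along the chromosome. The middle 50% of the span, from 3441037 to 10323110, held 217 of the 346 regions (62.7%, interval 57.4 to 67.8), where the middle parts of all chromosomes held 59.0%. The share was higher on V (73.1%) and I (63.9%), and on the others it went down to 49.7% on X. On III there were 31.5 regions per Mb in the middle, against 18.9 in the outer part on the left and 18.6 in the outer part on the right. Replicate 1 had 16.7 peaks per Mb in the middle, 7.85 on the left and 11.3 on the right. Replicate 2 had 20.2 in the middle, 8.14 on the left and 10.8 on the right. Both libraries were thus densest in the middle and sparsest on the left, while the combined list had nearly equal densities in the outer parts.

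The outer parts held regions of different support. On the left, 21 of 65 regions (32.3%, interval 21.2 to 45.1) held a peak of both replicates and 33 were in the combined list alone. On the right, 30 of 64 (46.9%, interval 34.3 to 59.8) held both and 19 were in the combined list alone, while in the middle 99 of 217 (45.6%) held both. The median of the best −log10 q per region was 6.90 on the left, 7.46 in the middle and 9.09 on the right. Of the lists, only the combined one rose in this way, with medians of 6.90, 7.49 and 9.09 over its peaks. Replicate 1 had 7.18, 7.61 and 7.46 in the same parts, and replicate 2 fell from 8.53 to 7.84 and 7.16. These differences were not tested.

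In bins of 1 Mb the count of regions ranged from 14 to 35 over the 13 whole bins, with a median of 25. The 5 bins from 4000001 to 9000000 held 34 or 35 regions each. This stretch, named after the bins were seen, is 36.3% of the span and held 172 regions (49.7%), 90 of the peaks of replicate 1 (49.7%), 111 of replicate 2 (54.4%) and 171 of the combined list (50.0%). Outside that stretch the fullest bins were 1000001 to 2000000, with 26 regions, and 10000001 to 11000000, with 25. The bin on the left held 12 peaks of replicate 1, 15 of replicate 2 and 26 of the combined list, and that on the right held 19, 21 and 24. Both replicates were found in 11 regions of the left bin and 16 of the right one. On either side of the left bin the counts were 20 regions in the first Mb and 16 in the third.

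**Figure D2:**
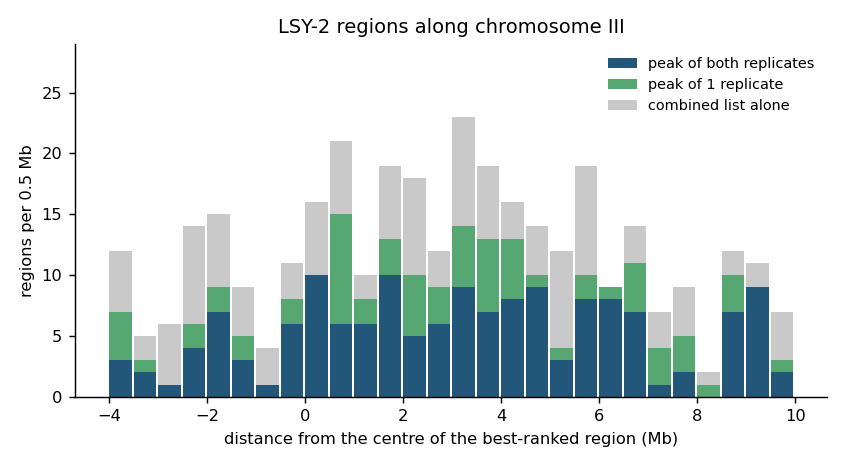
Number of chromosome III regions per 0.5 Mb (bars) by distance from the centre of the best-ranked region, split into regions with a peak of both replicates, of 1 replicate, and of the combined list alone. The highest bar, of 23 regions, stands between 3 and 3.5 Mb and the lowest, of 2 regions, between 8 and 8.5 Mb. Between 0 and 6 Mb the bars range from 10 to 23 regions.

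The densest 500 kb depended on the list. Windows were moved in steps of 50 kb, and the median window held 13 regions. With all lists merged the densest window was 5500001 to 6000000, with 25 regions, of which 11 held both replicates. It contained 13 peaks of replicate 1, 15 of replicate 2 and 26 of the combined list, and none of its regions exceeded a −log10 q of 32.1. In each replicate's own list the densest window was 3800001 to 4300000, with 15 peaks of replicate 1 and 17 of replicate 2. That window held 23 regions, of which 14 had both replicates, and it includes the best-ranked region of the chromosome. The densest 500 kb of the other chromosomes held 20 to 25 regions, so the peak density of III was matched elsewhere, while its median window (13) was above those of the others (5 to 10).

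The emptiest stretch lay on the right. From 11850001 to 12400000 there were 2 regions, at 12003132 to 12003476 in the combined list alone (−log10 q of 4.51) and at 12250141 to 12250774 in replicate 2 (7.26) and the combined list (9.03). Replicate 1 listed no peak in that interval. It also listed none from 11100001 to 11650000, where replicate 2 had 1 peak and the combined list 4. No region with both replicates lay between 11000001 and 11600000. The 7 regions between 11000001 and 11500000 were 4 of the combined list alone and 3 with 1 replicate, and the strongest of these, at 11463411 to 11464172, had 8.61 in replicate 2 and 13.3 in the combined list. The left side had poor stretches too, with 3 regions between 2900001 and 3450000, of which 1 was in both replicates.

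The median gap between neighbouring regions was shortest on chromosome III, at 14879 bp from end to facing end (quartiles 3088 and 50581, 345 gaps), where the medians of the other chromosomes ranged from 19071 bp on I to 25562 bp on II. The lower quartile was shorter on V, at 2427 bp. Within single lists the median gap on III was 42444 bp in replicate 1, 36757 bp in replicate 2 and 16212 bp in the combined list. The gaps had no single scale: 66 of 345 were under 2000 bp (60 of 278 on V), 154 were 10000 bp or less, 38 were over 100000 bp and 13 were over 200000 bp. The 4 shortest, at 72, 99, 178 and 194 bp, are shorter than the regions they separate.

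**Figure D3:**
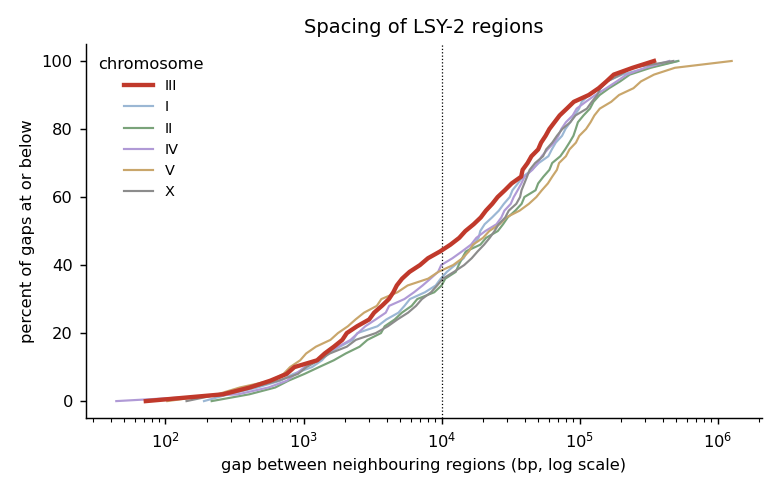
Share of gaps (percent) at or below each length (bp, log scale) for chromosome III and the other 5 chromosomes, and a dotted line at 10000 bp. The curve of III stands above the others at 10000 bp, where 44.6% of its gaps are included, against 34.2% to 40.3% on the others.

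The longest gap was 346091 bp, between a region of the combined list alone at 9059873 to 9060471 (5.83) and one of replicate 2 and the combined list at 9406563 to 9406866 (6.63 in the combined list). It lies inside the dense middle and follows directly on a group of 4 regions. The next, 268258 bp, separated 9827094 to 9827976 from 10096235 to 10097003, both found in all lists. A gap of 257209 bp separated 12616765 to 12617386 from 12874596 to 12874966, and so divides a group of 6 regions from a run of 7 regions of both replicates. The gap of 254674 bp on the far left lay between regions of the combined list alone at 89182 to 89538 (3.73) and 344213 to 344757 (4.09). The fifth, of 250084 bp, ended at 1418555 to 1420362, the strongest region of the left outer part, with 63.4 in replicate 1, 62.8 in replicate 2 and 114 in the combined list.

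Most regions lay in groups, defined as chains in which facing ends are 10000 bp or less apart. Groups took in 236 of 346 regions (68.2%, interval 63.0 to 73.1), where the share over all chromosomes was 60.4%. On the other chromosomes it ranged from 54.1% on X to 65.9% on IV. More regions per Mb bring neighbours closer, and the part of density in this share was not tested. Chromosomes I, IV and X had 20.6, 20.5 and 20.8 regions per Mb, and 58.1% (interval 52.4 to 63.6), 65.9% (60.8 to 70.8) and 54.1% (48.8 to 59.3) of their regions lay in groups. With rows of q below 1e-10 only, 57 of 134 regions of III were in groups (42.5%, interval 34.0 to 51.4), against 23.3% to 33.7% on the others. With the replicate lists alone the share was 57.3% on III and 40.4% to 50.9% on the others.

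The 82 groups of chromosome III had a median length of 6410.5 bp and a longest of 31270 bp, and the 154 gaps within them had a median of 2467.5 bp. Of these groups 45 held 2 regions, 19 held 3, 9 held 4, 4 held 5, 4 held 6 and 1 held 9. At least 1 region with both replicates was present in 63 groups, and 24 groups held 2 or more. Grouped regions did not stand out in support: 103 of 236 held both replicates (43.6%), against 47 of 110 single regions (42.7%). Their median width was 721 bp, against 598.5 bp for single regions, and the medians of the best −log10 q were 7.67 and 7.37.

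The group with the best-ranked region spanned 3854773 to 3874153 and held 6 regions. Its centre of strength was 3866012 to 3868762, where −log10 q reached 221 in replicate 1 and 274 in replicate 2, the second best row of either list. On its left lay 3 regions of moderate and even strength. The region 3854773 to 3855230 had 11.2 in replicate 1, 12.9 in replicate 2 and 26.0 in the combined list. The region 3857061 to 3857398 had 13.8, 16.1 and 24.7 in the same lists, and 3862608 to 3863463 had 10.5, 12.3 and 22.1. On its right, 194 bp away, 3868957 to 3870006 had 7.0 in replicate 1 and 8.36 in replicate 2. The last, 3873436 to 3874153, was in the combined list alone (4.41).

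The combined list thus had rows for the weaker members of this group on both sides and none for the strongest member or its right neighbour. Of the 150 chromosome III regions with both replicates, 148 were in all 3 lists, against 727 of 733 over all chromosomes. The strongest member and its right neighbour are thus the only 2 on III that the combined list lacked. The other regions absent from it were weak: 4653402 to 4653959 (3.91 in replicate 2), 8355051 to 8355345 (3.88 in replicate 1) and 10157540 to 10157936 (4.66 in replicate 2).

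**Figure D4:**
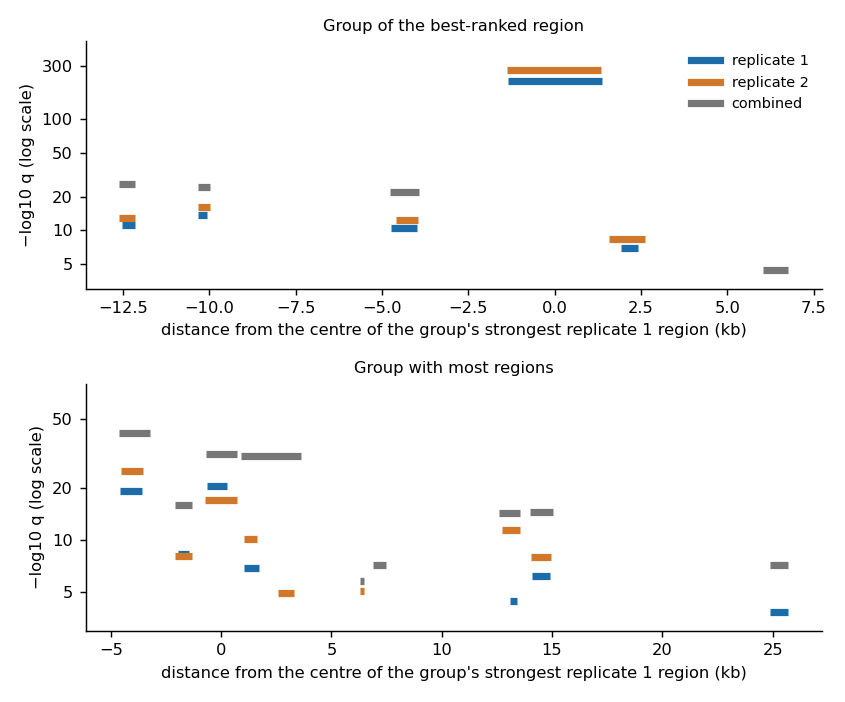
Peaks of the group around the best-ranked region (upper panel) and of the group of 9 regions (lower panel), each drawn as a bar from its start to its end (distance in kb) at the height of its −log10 q (log scale), in replicate 1, replicate 2 and the combined list. In the upper panel the strongest region is drawn for both replicates, at 221 and 274, and has no bar of the combined list.

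The largest group held 9 regions between 1920767 and 1951105, in the left outer part. Its first 4 regions were all found in both replicates. They were 1920767 to 1922174 (19.1 in replicate 1, 25.2 in replicate 2 and 41.4 in the combined list), 1923307 to 1924084 (8.37, 8.06 and 15.9), 1924668 to 1926132 (20.5, 16.9 and 31.6) and 1926311 to 1929007 (6.86, 10.1 and 30.5). The middle was weak, with 1931671 to 1931887 in replicate 2 (5.12) and the combined list (5.80) and 1932295 to 1932876 in the combined list alone (7.19). A second pair in both replicates followed at 1937996 to 1938939 (4.44, 11.5 and 14.3) and 1939380 to 1940428 (6.20, 7.96 and 14.6). The group ended with 1950259 to 1951105, which had 3.87 in replicate 1, its weakest row on the chromosome, and 7.21 in the combined list. No member of this group was among the 100 best rows of a list, so it stands out by number and not by strength.

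A group of 6 regions at 12597828 to 12617386 combined strength and number. It began with 12597828 to 12600336, which had 41.8 in replicate 1, 61.2 in replicate 2 and 98.6 in the combined list. Then came 12602229 to 12602791 in the combined list alone (4.30) and 3 regions of both replicates. These were 12607621 to 12609177 (9.31, 10.7 and 18.6), 12612208 to 12613732 (16.7, 22.3 and 35.8) and 12614174 to 12615866 (8.19, 5.14 and 14.3). The last region, 12616765 to 12617386, was in replicate 1 (4.57) and the combined list (6.48).

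The other groups of 6 were led by 1 region each and trailed off. At 6971581 to 7002850, the longest group, the first region (6971581 to 6973034) had 48.7 in replicate 1, 47.8 in replicate 2 and 81.8 in the combined list. Its next regions, 6978529 to 6979393 (5.98, 5.48 and 7.44) and 6981374 to 6982198 (9.87, 13.6 and 19.2), were in both replicates. The remaining 3, at 6987984 to 6988451 (5.25), 6992846 to 6993639 (4.07) and 7002220 to 7002850 (4.61), were in the combined list alone. At 7722768 to 7738172, the strongest was 7728462 to 7731568 (8.58 in replicate 1, 13.0 in replicate 2 and 23.0 in the combined list), beside 7725472 to 7726338 (6.86, 6.13 and 11.5). The other 4 members of that group, 7722768 to 7724138, 7733591 to 7734501, 7736565 to 7737412 and 7737725 to 7738172, lacked at least 1 replicate and had 12.7, 4.39, 5.44 and 4.86 in the combined list.

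Of the 4 groups of 5 regions, 2 were well supported. At 13060907 to 13074643, the first 4 regions were in both replicates, with 4.92, 18.1, 5.58 and 19.7 in replicate 1 and 7.46, 17.0, 7.77 and 20.2 in replicate 2. They lay at 13060907 to 13061720, 13061991 to 13063195, 13067891 to 13068761 and 13069455 to 13072015. The fifth, 13074287 to 13074643, was in the combined list alone (5.24). At 8785429 to 8806468, a core of 3 regions in both replicates had weak regions of the combined list alone on each side, at 8785429 to 8785784 (4.32) and 8806277 to 8806468 (4.03). The core comprised 8794601 to 8796253 (22.0 in replicate 1, 23.9 in replicate 2 and 45.3 in the combined list), 8796784 to 8797735 (12.8, 14.0 and 27.6) and 8799611 to 8802900 (28.5, 28.2 and 104).

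The remaining groups of 5 leaned on 1 replicate. At 4491338 to 4499434, the region 4491338 to 4492456 had 6.14 in replicate 1, 13.9 in replicate 2 and 17.1 in the combined list. The others lacked replicate 1: 4494297 to 4495111 (3.97) and 4498824 to 4499434 (4.06) were in replicate 2, and 4495211 to 4496550 (8.17) and 4497222 to 4498319 (5.50) in the combined list alone. At 65239 to 72894, close to the left end of the chromosome, replicate 2 had no peak. There 65239 to 66144 had 4.56 in replicate 1, 66915 to 67450 had 5.10 and 70023 to 70879 had 3.95. These 3 neighbours are the longest run of chromosome III regions in replicate 1 without replicate 2. The last regions of that group, 71142 to 71730 (7.23) and 72605 to 72894 (5.07), were in the combined list alone.

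Runs of shared regions took in grouped and single regions. The longest runs of neighbouring regions that all held both replicates had 7 members each, at 10214225 to 10407577, where 2 of the 7 were grouped, and at 12874596 to 13072015, where 4 of the 7 were, all in the group at 13060907. In the first run the leading pair, 10214225 to 10217693 and 10217766 to 10219005, had 15.5 and 28.1 in replicate 1, against 13.5 and 23.9 in replicate 2. The other 5 members of that run were weak: their replicate 1 scores spanned 3.95 to 7.55, and those of replicate 2 spanned 4.86 to 5.86. That each member has a peak of both replicates follows from how such runs are defined. The second run included some of the strongest regions of the chromosome. The longest run of the combined list alone had 5 members, at 2099032 to 2150910, with a median −log10 q of 4.90.

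Of all 346 regions, 217 lay in the middle 50%, 64 in the right outer part and 65 in the left. The 15 regions with the best mean rank over both replicates lay 9, 5 and 1 in these parts. Their lowest −log10 q was 41.8 in replicate 1 and 47.8 in replicate 2. They were broad, with a median width of 2145 bp (1102 to 4196), against 638 bp for the other 331. Of the 15, 9 stood alone, with no other region within 10000 bp, where 110 of all 346 regions did. The region after the leading one was 4474394 to 4477260, with 179 in replicate 1, 190.0 in replicate 2 and 242 in the combined list. At 12904031 to 12907283 the values were 162, 208 and 250.3, and at 9764348 to 9766957 they were 130.2, 174 and 233. These 4 regions were each among the 10 best rows of both replicates.

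The next places had smaller values, and their order differed between the libraries. The region 8903515 to 8905659 had 96.2 in replicate 1, 105 in replicate 2 and 154 in the combined list. The region 13462371 to 13466566 had 89.7, 119 and 199.6 in the same lists, and 8416770 to 8418296 had 77.2, 96.8 and 154. At 12977222 to 12979907 the values were 69.8, 80.7 and 117. Replicate 1 had the larger value at 9545249 to 9546679 (68.5, against 66.4 in replicate 2) and at 1418555 to 1420362. Then came 10758620 to 10759913 (48.7 in replicate 1, 69.2 in replicate 2 and 82.7 in the combined list), 7854084 to 7855185 (51.2, 59.9 and 78.6) and 7207194 to 7208462 (46.1, 59.3 and 98.9). The fourteenth was the first member of the group at 12597828. The fifteenth was 6971581 to 6973034, described above.

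The libraries agreed in the order of strength. Over 158 overlapping pairs of peaks on chromosome III, Spearman's rho of −log10 q was 0.84, and over the 628 pairs of the other chromosomes it was also 0.84. This is a relation across peaks of 2 libraries, which are not independent samples, and no test was made. In 109 of the 158 pairs (69.0%), and in 12 of the 15 best-ranked regions, the stronger call was that of replicate 2. On the other chromosomes it was so in 416 of 628 pairs (66.2%). At the median the difference, replicate 2 minus replicate 1, was 1.78 units (quartiles −0.44 and 4.57). The midpoints of paired peaks were 61.5 bp apart at the median (quartiles 23.5 and 122.9). Within 100 bp lay 105 of 158 pairs (66.5%), against 420 of 628 (66.9%) on the other chromosomes. Pairs were formed from peaks that overlap, so the closeness of their midpoints is partly set by that choice. The shared bases were 75.4% of the joint interval at the median, and 78.1% on the other chromosomes.

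**Figure D5:**
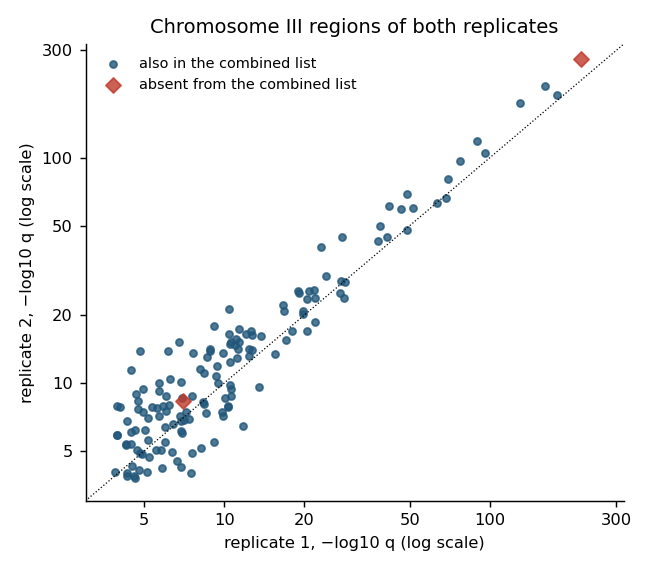
The −log10 q of replicate 1 and of replicate 2 (log axes) for the 150 chromosome III regions with a peak of both replicates, as points, with a dotted line of equal values. The points tighten along the line toward the top, and the 2 regions absent from the combined list are drawn as diamonds, 1 of them at the far end with 221 and 274.

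Most peaks of one library were found in the other. On chromosome III, 157 of 181 peaks of replicate 1 were overlapped by replicate 2 (86.7%, interval 80.9 to 91.3, against 87.4% over all chromosomes). Of the 204 peaks of replicate 2, 153 were overlapped by replicate 1 (75.0%, interval 68.5 to 80.8, against 74.1%). Both shares were near those of the whole lists. The unshared calls were weak: replicate 1 peaks in regions without replicate 2 reached at most 6.36 in replicate 1, and replicate 2 peaks in regions without replicate 1 at most 8.61 in replicate 2. Of the 48 regions with replicate 2 but not replicate 1, 35 lay in the middle 50% of the span, and of the 23 with replicate 1 but not replicate 2, 10 did, where 217 of all 346 regions (62.7%) did. These differences in place were not tested.

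Single broad stretches were divided differently by the lists. In 11 of the 346 regions at least 1 list had 2 rows, and all 11 were supported by all 3 lists. Such regions were as common elsewhere, with 6 of 310 on I, 11 of 267 on II and 4 of 358 on IV. There were 10 of 279 on V and 11 of 366 on X. At 12904031 to 12907283, replicate 1 had a peak at 12904135 to 12906020 (162) and another at 12906249 to 12907206 (14.5), where replicate 2 had 1 peak of 208 over 3122 bp. At 832814 to 836315, replicate 1 had 2 rows, the better at 23.1, and replicate 2 had 1 row at 40.1. At 8799611 to 8802900 and 10214225 to 10217693 both replicates had 2 rows and the combined list 1. At 5501463 to 5503691 the combined list itself had 2 rows.

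The widest regions were of mixed strength. The widest, 13462371 to 13466566, measured 4196 bp and was also sixth in rank. It was followed by 5937797 to 5941525, at 3729 bp, with only 12.6 in replicate 1, 16.9 in replicate 2 and 32.1 in the combined list. Then came 832814 to 836315 at 3502 bp, 10214225 to 10217693 at 3469 bp and 8799611 to 8802900 at 3290 bp. Within each list, the wider peaks of chromosome III tended to be the stronger ones (Spearman's rho of 0.65 in replicate 1 over 181 peaks, 0.64 in replicate 2 over 204 and 0.64 in the combined list over 342). These correlations describe peaks that share a library and a caller. The widest region of each other chromosome was wider than that of III, from 4209 bp on IV to 11095 bp on II.

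The weakest chromosome III rows lay near the end of each list. In replicate 1 they were 1950283 to 1951105 (q of 0.000135), 7189651 to 7189977 and 8355051 to 8355345 (q of 0.000133 each). In replicate 2 they were 8974822 to 8975149 (q of 0.000159), 10642745 to 10643050 (0.000156) and 6551276 to 6551440 (0.000136). In the combined list they were 9052356 to 9052992 (0.000193), 89182 to 89538 (0.000186) and 13292668 to 13293011 (0.000175). The weakest row of replicate 2 on chromosome III was among the last 2 of its whole list of 1033. Peaks beyond the lists' limits are not in view, and why a region is absent from a list was not tested.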

How the data were processed

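The members and the lists of values to report were chosen with earlier results of these data known. Coordinates are those of WormBase build WS180 per the file headers, and the source column of each deposited list names PeakSeq. Each deposited row holds 1 q value, a p-value adjusted for many peaks, from the authors' own peak calling. The aligner, tool versions, threshold and control, and the way the combined list was made, were not given in the sources used here. Whether q is comparable between lists is likewise not stated.

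Rows overlapping by 1 bp or more were merged over all lists. A region's −log10 q in a list is that of its best row. Gaps are the bases between facing ends, groups are chains with gaps of 10000 bp or less, and windows of 500000 bp were moved by 50000 bp and count midpoints. A chromosome's span ends at its last listed base. Shares have exact 95% Clopper-Pearson intervals. No hypothesis test was made, since 2 libraries of 1 condition allow none over samples. Regions were named by a rule: the 15 best mean ranks, groups of 5 or more, the 5 widest, the sides of the 5 longest gaps, regions absent from the combined list, the 3 weakest rows of each list, and the densest and emptiest windows. Others were chosen after their values were seen, among them the members of runs and of split regions. The merging and grouping were tested on simulated data. Python 3.11.15, NumPy 2.4.6, pandas 2.3.3, matplotlib 3.10.9 and SciPy 1.17.1 were used. Gene names in the reference table belong to a different build, so genes and sequences were left out.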

Additional observations from a re-analysis of the deposited data

How the results depend on the processing

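Of 55 alternatives over 13 results, 35 moved a value by no more than its spread (the 95% interval of a share, the SD between the replicates' own lists for a median, or 1.5 times for a count). Without replicate 1 or without replicate 2, the other lists gave 345 regions each time, and none of the 6 results recomputed (number, middle share, gap, group share, width and densest window) moved beyond its spread. Support by all 3 lists or by both replicates has no value without 1 of them. With the replicate lists only, there were 227 regions, the median gap was 29718 bp, 57.3% lay in groups, 67.0% held both replicates, and the densest 500 kb held 32 regions per Mb, at 3800001 to 4300000. With q below 1e-05, the median gap was 22524.5 bp, the median width 778 bp and 59.5% lay in groups. With q below 1e-10, there were 134 regions, the median gap was 59677 bp, the median width 1029.5 bp, 42.5% lay in groups and the densest window held 26 regions per Mb, again at 3800001 to 4300000. The densest 200 kb lay at 4450001 to 4650000 and the densest 1 Mb at 3800001 to 4800000, neither of which includes the densest 500 kb. Fewer rows lengthen gaps by construction. With group distances of 5000 and 20000 bp, 59.2% and 80.1% lay in groups, and the middle of 3 equal parts of the span held 43.6% of regions. The share of replicate 1 peaks overlapped was 78.5% with a reciprocal overlap of 50% and 95.6% with q below 1e-05, and that of replicate 2 was 91.9% with q below 1e-05. The best q per region had a median −log10 of 7.45, below the 7.78 of replicate 2. The share in the middle 50% stayed between 61.7% and 65.6% under the alternatives that kept this definition. No paired analysis was possible because only the ChIP libraries have lists in use here, so no groups were compared. Without read counts, depth cannot be weighed.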

Other observations

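In 137 chromosome III regions with 1 row in each list, the combined −log10 q exceeded both replicate values every time. The same held for every such region on I, II and X, for 132 of 134 on IV and for 97 of 98 on V. On III the combined value was 0.93 times the sum of the replicate values at the median (quartiles 0.82 and 1.02, range 0.57 to 1.38). On II, IV, V and X the median ratios were 0.88, 0.94, 0.97 and 0.96, and on I it was 1.18 (quartiles 1.09 and 1.33, 92 regions). The same arithmetic gives no value for the best-ranked region of chromosome III, which has no combined row. Nothing in the sources used here says how the combined q values were made, and a reason for the higher ratio on I was not tested.

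The combined list held very short intervals on chromosome III. The shortest was 6678167 to 6678168, of 2 bp, with a −log10 q of 4.23 and no peak of a replicate. The next were 1514911 to 1514949 (39 bp), 1555599 to 1555652 (54 bp), 984926 to 984991 (66 bp) and 1555151 to 1555220 (70 bp), all in the combined list alone. The shortest chromosome III peaks of the replicates were 202 bp in replicate 1 and 165 bp in replicate 2. On the other chromosomes the shortest peak of the combined list ranged from 5 bp on X to 150 bp on V. Replicate 2 had a peak of 10 bp on II. Some q values were repeated within a list, in 10 chromosome III rows of replicate 1, 13 of replicate 2 and 16 of the combined list.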
